A study of Saccharomyces cerevisiae with 6 samples.

Results

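The 10 plasma membrane amino acid permease genes examined here were *CAN1*, *LYP1*, *HIP1*, *TAT1*, *TAT2*, *DIP5*, *AGP1*, *GNP1*, *BAP2* and *BAP3* of *Saccharomyces cerevisiae*. They were taken by name from a table of 7122 genes, as plasma membrane carriers of amino acids apart from *GAP1* and those of sulfur amino acids, and all 10 were found. The list is not a complete set of such carriers, and further ones are described after it. RNA was measured in 3 samples of *ths1-C268A* and 3 of WT, which the labels letter A to C. Both strains derive from the laboratory strain BY4741, and all cultures were grown in rich medium at 30 °C and held at 37 °C for 2 h before collection. In *ths1-C268A* a Cys of the pocket in which threonyl-tRNA synthetase (ThrRS) edits its product is replaced by Ala, so that Ser wrongly attached to tRNA for Thr is not removed. The mutant enzyme is also known to be less stable at the higher temperature, and a loss of editing and a loss of enzyme cannot be told apart in these samples. The question was which permease mRNAs differ between the strains. *LEU2*, *MET17* and *URA3*, which BY4741 lacks, were listed at 0 in all 6 samples, and *HIS3*, of which this background keeps a part, averaged 240.2 FPKM in *ths1-C268A* and 94.7 FPKM in WT. *MFA1*, the **a**-factor gene of this mating type, was 1494 to 2065 FPKM in *ths1-C268A* and 811.0 to 1078 FPKM in WT. In cultures measured as a whole, fewer cells with an mRNA and less of it per cell cannot be told apart.

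Yeast imports amino acids through carriers that each take a different range of substrates. The SPS sensor, made of Ssy1, Ptr3 and Ssy5, detects amino acids outside the cell. Ssy1 is a permease-like receptor that does not transport, Ptr3 is its adaptor and Ssy5 is a protease. Once active, Ssy5 removes the part of the transcription factors Stp1 and Stp2 that holds them in the cytoplasm, and these then enter the nucleus and raise the transcription of several permease genes. Permeases are folded in the ER with the help of Shr3, and at the plasma membrane they are ubiquitylated by Rsp5 with arrestin-like adaptors and sent to the vacuole. BY4741 cannot make His, Leu or Met and depends on such carriers for them.

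The sequence upstream of the permease genes was read from RefSeq R64, whose gene coordinates match the table. In the 500 bp before the start codon, 4 short sequences were searched on both strands. CGGC is the core of the upstream element through which Stp1 and Stp2 act, TGACTC is the core of the Gcn4 site, GATAAG is the site of the GATA factors of nitrogen regulation and CCGNNNNCGG is the site of Leu3, a regulator of leucine synthesis. Overlapping matches were each counted. The following stretches are shown because they hold every match found upstream of the gene with the largest decrease (*TAT1*), of its neighbour *BAP2* and its relative *BAP3*, of *GNP1* and *AGP1*, and of *CAN1*, which was higher in *ths1-C268A*. They run 5′ to 3′ along the coding strand, capitals mark the matches, and positions count back from the start codon.
TAT1 (chrII:378816-378906, minus strand, -473 to -383): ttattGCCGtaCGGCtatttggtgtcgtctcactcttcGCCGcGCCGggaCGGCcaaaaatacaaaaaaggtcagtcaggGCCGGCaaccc
BAP2 (chrII:375892-376187, minus strand, -497 to -202): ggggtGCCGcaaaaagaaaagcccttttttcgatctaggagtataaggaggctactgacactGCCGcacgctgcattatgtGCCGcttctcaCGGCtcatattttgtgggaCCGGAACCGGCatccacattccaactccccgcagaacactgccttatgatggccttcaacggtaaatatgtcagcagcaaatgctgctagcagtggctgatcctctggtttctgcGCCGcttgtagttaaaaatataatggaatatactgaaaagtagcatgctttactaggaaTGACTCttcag
BAP3 (chrIV:550927-551064, minus strand, -488 to -351): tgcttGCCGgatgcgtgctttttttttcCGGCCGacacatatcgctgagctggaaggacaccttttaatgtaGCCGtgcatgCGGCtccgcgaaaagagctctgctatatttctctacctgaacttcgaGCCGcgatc
GNP1 (chrIV:1468785-1468913, minus strand, -469 to -341): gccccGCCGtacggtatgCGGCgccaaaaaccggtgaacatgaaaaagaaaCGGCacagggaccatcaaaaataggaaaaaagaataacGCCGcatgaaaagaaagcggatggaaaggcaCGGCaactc
AGP1 (chrIII:78134-78412, minus strand, -493 to -215): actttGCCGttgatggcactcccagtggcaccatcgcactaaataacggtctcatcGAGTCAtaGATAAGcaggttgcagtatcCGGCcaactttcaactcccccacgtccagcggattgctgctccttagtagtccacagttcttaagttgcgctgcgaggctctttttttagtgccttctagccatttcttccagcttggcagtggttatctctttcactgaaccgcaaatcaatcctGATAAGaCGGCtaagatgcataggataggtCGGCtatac
CAN1 (chrV:33723-33825, minus strand, -359 to -257): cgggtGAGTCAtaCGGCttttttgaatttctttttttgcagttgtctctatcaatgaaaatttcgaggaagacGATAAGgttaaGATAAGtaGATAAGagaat

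CGGC was frequent upstream of this family. It occurred 7 times before *TAT1*, 6 times each before *BAP2* and *BAP3*, 5 times before *GNP1*, 4 times before *AGP1* and 3 times before *TAT2*. *LYP1* had 2 matches, *CAN1* and *HIP1* had 1 each, and *DIP5*, the dicarboxylic amino acid permease, had none. At least 3 matches were present before 6 of the 10 permease genes and before 18.0% of 5976 protein-coding genes. TGACTC was found before 4 permease genes, with 2 matches for *HIP1* and 1 each for *CAN1*, *AGP1* and *BAP2*, against 12.7% of all promoters. GATAAG was found before *CAN1*, 3 times in close succession, and before *AGP1*, 2 times. It was present before 22.8% of all promoters and at least 2 times before 3.65%. The single Leu3 site was upstream of *BAP2* and shares its last bases with a CGGC, in the run CCGGAACCGGC of the stretch above, and 3.26% of all promoters hold such a site. A match is only a run of letters, and its absence says no more than that these letters are not in the window. The window of *LYP1* reaches into *BSC4*, which ends 455 bp upstream. Of the ORFs that overlap permease genes, YGR190C (366 bp) shares 242 bp with *HIP1* and YDR509W (348 bp) shares 219 bp with *GNP1*. Whether the rest of these ORFs lies in the windows was not examined.

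**Figure D1:**
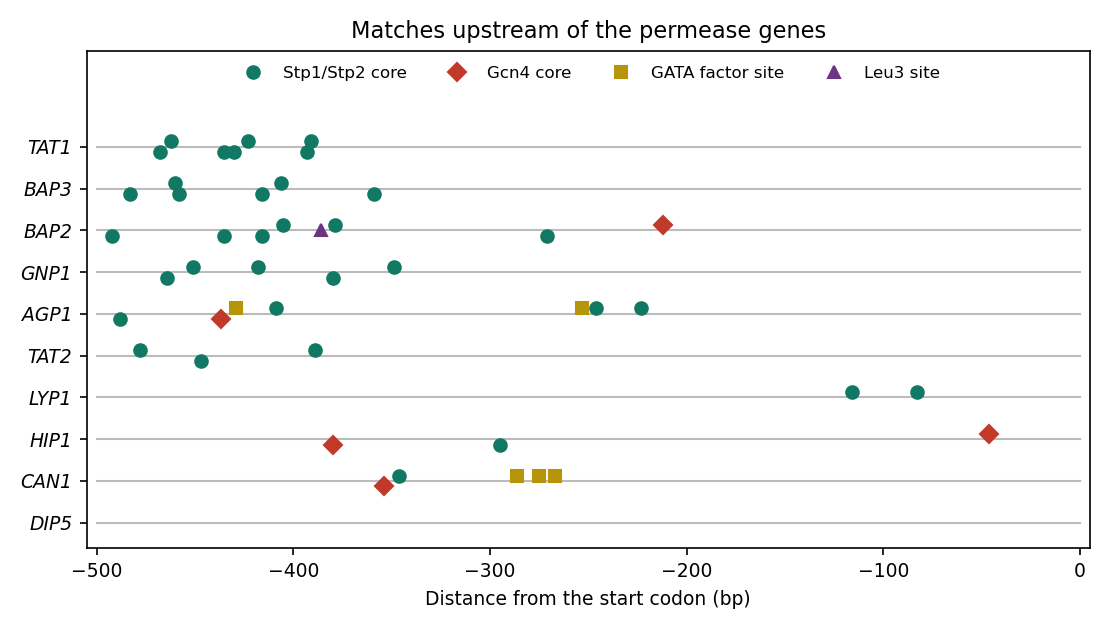
Matches to 4 short sequences in the 500 bp upstream of the 10 permease genes, by distance from the start codon in bp. Genes run from *TAT1*, with 7 Stp1/Stp2 cores, at the top to *DIP5*, with none, at the bottom, and marks above the line are matches on the coding strand. All cores of *TAT1*, *TAT2*, *BAP3* and *GNP1* lie in the distal part of the window.

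Levels are given as FPKM, the fragments of a gene scaled to its length and to the fragments of its sample, so that levels of different genes can be compared. The 10 coding regions were of like length, 1773 to 1992 bp, and each value rested on 3163 (*BAP3*) to 66418 (*BAP2*) fragments, so counting error was small for all of them. *BAP2*, a carrier of branched-chain amino acids, was the most abundant permease mRNA in either strain and ranked 58th of 6688 protein-coding genes by its mean over the 6 samples. *GNP1*, the high-affinity glutamine permease, and *DIP5* followed in either strain. No range of these 3 genes overlapped that of another within a strain. Below them, the levels of 7 genes lay close together. In *ths1-C268A* their means ran from *AGP1* at 196.4 and *CAN1* at 184.6 through *LYP1* at 165.5, *TAT2* at 135.6, *TAT1* at 129.1 and *HIP1* at 123.9 to *BAP3* at 95.5 FPKM. In WT the means ran from *TAT1* at 204.1 and *AGP1* at 199.8 FPKM through *LYP1* at 154.1, *TAT2* at 145.9, *CAN1* at 137.7 and *HIP1* at 109.5 to *BAP3* at 92.8 FPKM. *TAT1* was therefore 8th in the mutant and 4th in WT, and *CAN1* was 5th in the mutant and 8th in WT. In *ths1-C268A* the samples of *AGP1* overlapped with those of *CAN1* and *LYP1*, and those of *TAT2*, *TAT1* and *HIP1* with each other. In WT the samples of *TAT1* and *AGP1* overlapped, as did those of *LYP1* with *TAT2* and of *TAT2* with *CAN1*.

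**Figure D2:**
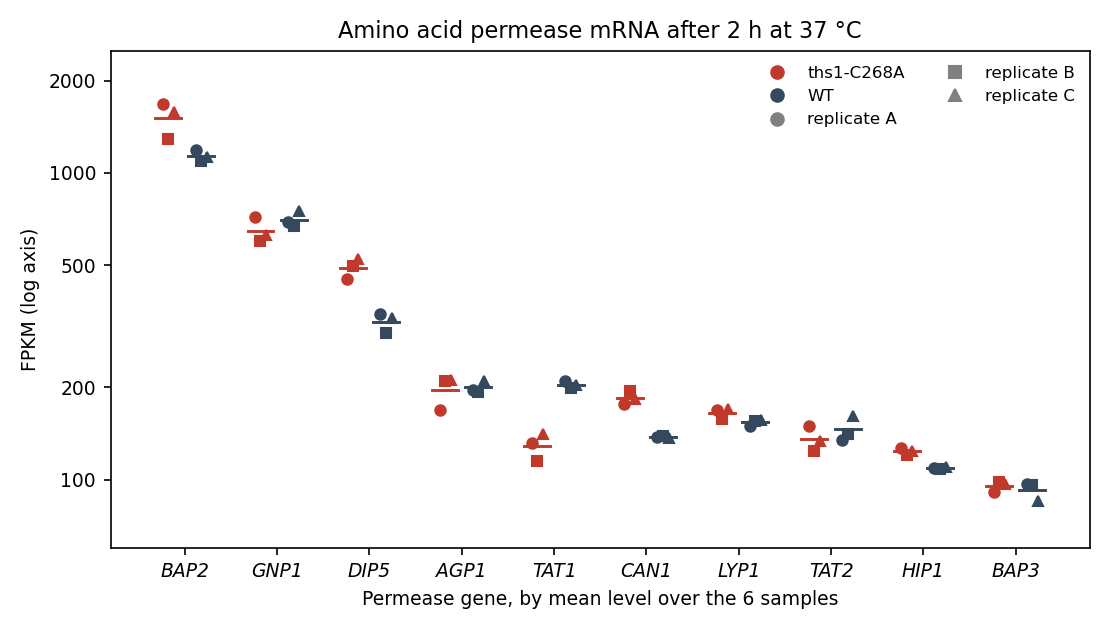
Level of each permease mRNA in FPKM, on a log axis, in the 3 *ths1-C268A* and the 3 WT samples, with genes ordered by their mean over all samples and bars at the mean of each strain. On this scale *DIP5*, *CAN1*, *BAP2*, *HIP1* and *LYP1* sit higher in every *ths1-C268A* sample than in any WT sample. *TAT1* sits lower (114.8 to 141.2 FPKM in *ths1-C268A*, 199.2 to 209.1 FPKM in WT).

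Within the family, 2 mRNAs rose in *ths1-C268A*, *DIP5* and *CAN1*, 1 fell, *TAT1*, and 7 did not pass the test. The comparison used limma on log2(FPKM + 1) over the 6447 genes that averaged 1 FPKM or more, p-values were adjusted over all of these by Benjamini-Hochberg with a threshold of 0.05, and fold changes are *ths1-C268A* over WT on that scale. Over all genes tested, 14.2% were higher and 12.1% were lower, so that 26.4% passed in either direction. The 3 calls among 10 permeases are close to this share. With any 1 of the WT samples left out, the share over all genes was 10.02% (B), 12.27% (C) or 13.18% (A), while the same 3 permeases passed, so the closeness does not hold there. With 1 of the *ths1-C268A* samples left out, the share was 33.27% (A), 17.50% (B) or 22.26% (C). The same 3 permeases passed in these fits, and *BAP2* passed as well without replicate B. In FPKM the groups of samples did not overlap for 6 of the 10 permeases and for 45.6% of all genes tested. As a share of the fragments in the table, *DIP5*, *CAN1* and *TAT1* still did not overlap, but *BAP2*, *HIP1* and *LYP1* did. *AGP1*, which overlapped in FPKM, was by a narrow margin lower in every mutant sample as such a share. The share of all genes without overlap was not computed on that scale. The median log2 fold change of the permeases was 0.07, against -0.0025 for all genes, and was -0.044, against -0.115 for all genes, when protein-coding fragments were given the same total in each sample (the equal total).

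The scale of the values differed between the strains. The table held 16597937 to 19114041 fragments per sample, and fragments outside its genes made up 10.6 to 13.4% of the FPKM denominator in *ths1-C268A* and 18.3 to 18.7% in WT. Calls over all genes were 53.9% higher as deposited but 29.0% higher with the equal total and 30.65% with limma-voom on the recovered fragments. The part of this scale in the results was not tested beyond these alternatives. Fold change also rose with coding length over 6176 protein-coding genes (Spearman's rho 0.371, across genes, which are not independent replicates). The 490 genes of 1700 to 2000 bp, the length of the permeases, had a median log2 fold change of 0.09.

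*DIP5* (YPL265W, chromosome XVI, 41043 to 42869) encodes the carrier of glutamate and aspartate, which also takes serine, glycine and other small amino acids. It was 451.1, 496.0 and 524.7 FPKM in the 3 *ths1-C268A* samples, against 346.1, 301.4 and 335.9 FPKM in the WT samples. Every mutant sample was above every WT sample. The log2 fold change was 0.58 (standard error 0.10, adjusted p = 0.00588 from limma), the largest increase among the permeases. Over 17 alternative settings it stayed between 0.46 and 0.64, with adjusted p between 0.00481 and 0.0372.

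*CAN1* (YEL063C, chromosome V, 31694 to 33466), the arginine permease through which the toxic analog canavanine enters, was the other gene that rose. Its level was 177.0, 194.3 and 182.6 FPKM in *ths1-C268A* and 137.7, 138.8 and 136.6 FPKM in WT. The WT samples were nearly equal and lay below all of the mutant samples. Its log2 fold change was 0.42 (standard error 0.08, adjusted p = 0.00693 from limma), and over the alternatives it was 0.30 to 0.45 with adjusted p between 0.00642 and 0.0426. The other carriers of basic amino acids had smaller fold changes. *LYP1* (YNL268W), the lysine permease, was 168.2, 158.2 and 170.1 FPKM in *ths1-C268A* and 149.6, 155.8 and 157.1 FPKM in WT. In FPKM the highest WT sample lay just under the lowest mutant sample. The log2 fold change was 0.10 (95% interval -0.07 to 0.27, adjusted p = 0.336 from limma), and its sign turned with the equal total (-0.01). *ALP1*, a relative of both, was 28.4 FPKM in either strain (log2 fold change -0.01).

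*HIP1* (YGR191W), the high-affinity histidine permease, was 126.7, 120.7 and 124.3 FPKM in *ths1-C268A* and 109.3, 108.7 and 110.4 FPKM in WT. The samples of a strain were close to each other and the strains did not overlap in FPKM. As a share of the fragments in the table, mutant replicate B (4356 of 17806318) lay below WT replicate C (4078 of 16597937). The difference was small, with a log2 fold change of 0.18 (95% interval 0.01 to 0.34, adjusted p = 0.0973 from limma), and did not pass in any of the 17 alternatives. With the equal total the log2 fold change was 0.06 (adjusted p = 0.535 from limma). An ORF on the opposite strand, YGR190C, shares 242 bp with *HIP1*, and fragments of the shared part could belong to either gene if strand was not used in counting. YGR190C was 37.0 FPKM in *ths1-C268A* and 37.1 FPKM in WT.

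Among the carriers of branched-chain and aromatic amino acids, *TAT1* fell, while *BAP2* was higher in every mutant sample in FPKM but did not pass the test. *TAT1* (YBR069C, chromosome II, 376574 to 378433), a permease of tyrosine, tryptophan and branched-chain amino acids, was 131.3, 114.8 and 141.2 FPKM in *ths1-C268A* and 209.1, 199.2 and 204.0 FPKM in WT. All mutant samples were below all WT samples. It fell by 0.66 on the log2 scale (standard error 0.09, adjusted p = 0.00294 from limma), the only decrease among the permeases to pass, and over the alternatives the log2 fold change was -0.78 to -0.58 with adjusted p between 0.000486 and 0.0190. By p it ranked 173rd of the 6447 genes tested. *BAP2* (YBR068C, 373861 to 375690) is the next gene on the same strand, 883 bp downstream, and the stretch printed for *BAP2* lies between the genes. It was 1673, 1288 and 1579 FPKM in *ths1-C268A* and 1192, 1090 and 1123 FPKM in WT. The groups did not overlap in FPKM, but the mutant samples were spread, with replicate B nearest to WT. As a share of the fragments in the table, the groups overlapped. *BAP2* held 46954 of 17806318 fragments in mutant replicate B and 47414 of 17761143 in WT replicate A. The log2 fold change of 0.41 (standard error 0.13, 95% interval 0.10 to 0.71) just missed the threshold (adjusted p = 0.0525 from limma). With the equal total it was 0.29 (adjusted p = 0.138 from limma). *BAP2* passed in 4 of 17 alternatives, with protein-coding genes only (0.0494), a mean of at least 10 FPKM (0.0446), the replicate letter as a block (0.0474) and without *ths1-C268A* replicate B (0.0249), and its adjusted p reached 0.182 without WT replicate B.

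A ratio of a pair of genes within a sample does not depend on how samples are scaled. *BAP2* exceeded *TAT1* 12.7, 11.2 and 11.2 times in *ths1-C268A*, against 5.70, 5.47 and 5.50 times in WT, a difference of 1.07 in log2. No mutant sample came near the WT range. Ratios were compared for 6 pairs with an exact permutation test of the samples, two-sided, which with 3 against 3 cannot give a p below 0.10. This smallest p was reached by *BAP2* to *TAT1*, *CAN1* to *LYP1*, *CAN1* to *ALP1* and *TAT1* to *TAT2* (0.15 after Benjamini-Hochberg adjustment over the 6 pairs), so none could pass at this size. *CAN1* was 1.05, 1.23 and 1.07 times *LYP1* in *ths1-C268A* and 0.921, 0.891 and 0.869 times in WT. The order of these basic amino acid carriers was reversed between the strains. *TAT1* was 0.880, 0.926 and 1.06 times *TAT2* in *ths1-C268A* and 1.55, 1.41 and 1.26 times in WT. The ratios of *BAP2* to *BAP3* (exact p = 0.20) and of *GNP1* to *AGP1* (exact p = 0.70) overlapped between the strains.

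**Figure D3:**
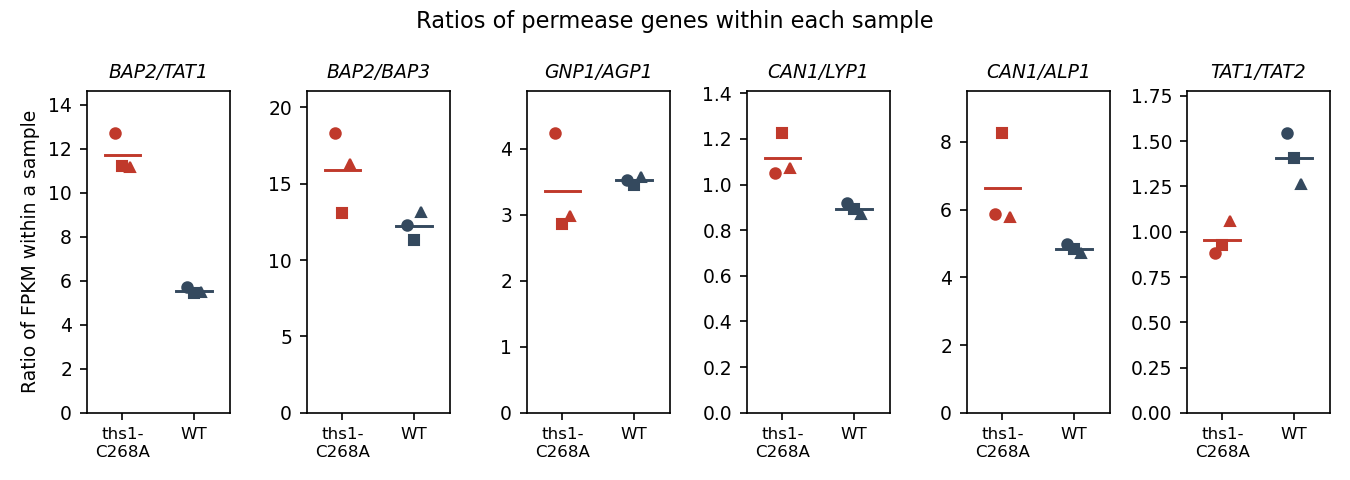
Ratio of the FPKM of 6 pairs of permease genes within each sample, with *ths1-C268A* left of WT, replicates A, B and C as circles, squares and triangles, and bars at the means. *BAP2* to *TAT1* is 11.2 to 12.7 in *ths1-C268A* and 5.47 to 5.70 in WT, while *GNP1* to *AGP1* overlaps.

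The relatives of these genes showed smaller differences. *TAT2* (YOL020W), the high-affinity tryptophan permease, was 149.2, 124.0 and 133.6 FPKM in *ths1-C268A* and 135.1, 141.5 and 161.3 FPKM in WT, and the strains overlapped (log2 fold change -0.11, 95% interval -0.34 to 0.13, adjusted p = 0.462 from limma). *BAP3* (YDR046C), a carrier of branched-chain and other neutral amino acids and the closest relative of *BAP2*, was 91.2, 98.5 and 96.8 FPKM in *ths1-C268A* and 96.7, 96.3 and 85.5 FPKM in WT. It was the lowest of the family in either strain, and its log2 fold change was 0.04 (95% interval -0.15 to 0.23, adjusted p = 0.733 from limma), or -0.07 with the equal total and -0.02 without WT replicate C.

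*GNP1* and *AGP1*, permeases of glutamine, asparagine and other neutral amino acids, did not pass the test. *GNP1* (YDR508C) was 715.7, 597.7 and 628.8 FPKM in *ths1-C268A* and 691.5, 669.6 and 750.4 FPKM in WT. Replicate A of the mutant lay within the WT range and the other two lay below it. Its log2 fold change was -0.12 (95% interval -0.37 to 0.12, adjusted p = 0.413 from limma). *AGP1* (YCL025C), its low-affinity relative, was 168.5, 209.2 and 211.4 FPKM in *ths1-C268A* and 196.0, 193.6 and 209.8 FPKM in WT, with a log2 fold change of -0.03 (95% interval -0.27 to 0.21, adjusted p = 0.842 from limma), or 0.07 without *ths1-C268A* replicate A. In this pair, mutant replicate A was the highest of its strain for *GNP1* and the lowest for *AGP1*. YDR509W, which overlaps *GNP1* on the opposite strand, averaged 0.251 FPKM and was not tested.

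**Figure D4:**
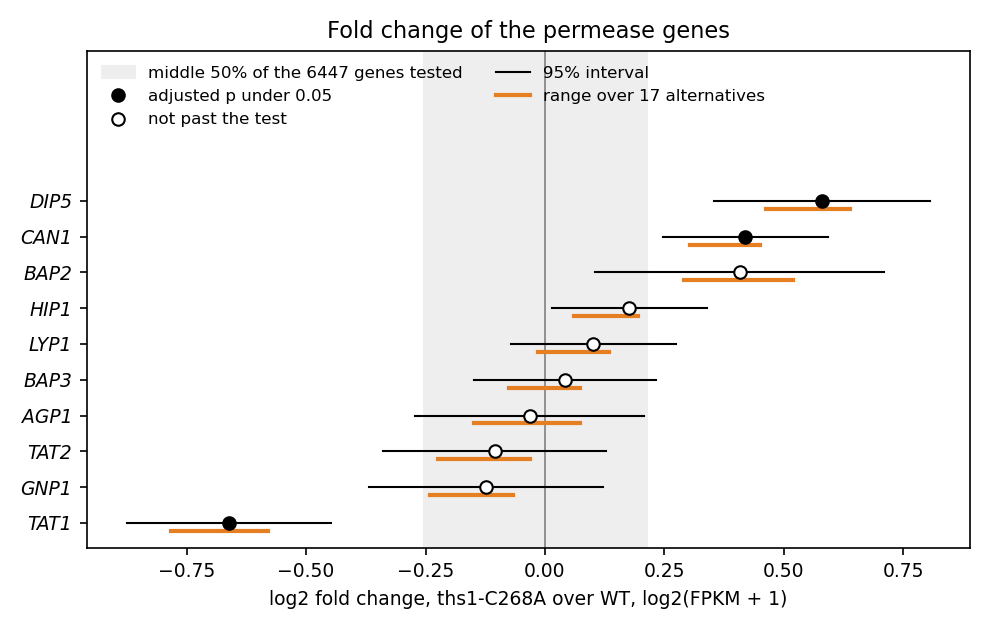
log2 fold change of each permease, *ths1-C268A* over WT on log2(FPKM + 1), with its 95% interval from limma, the range over 17 alternative settings and, shaded, the middle 50% of all genes tested (-0.25 to 0.21). *DIP5* (0.58), *CAN1* (0.42) and *TAT1* (-0.66) passed the test, and *BAP2* (0.41) did not.

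Summed over the family, permease mRNA was 3852, 3402 and 3792 FPKM in *ths1-C268A* and 3263, 3094 and 3273 FPKM in WT. The groups did not overlap on this scale. As a share of the fragments in the table, which removes the difference in the denominator, the 10 genes made up 0.827, 0.707 and 0.791% in *ths1-C268A* and 0.745, 0.710 and 0.751% in WT, and the strains overlapped. *BAP2* was 37.9 to 43.4% of the summed FPKM in *ths1-C268A* and 34.3 to 36.5% in WT, and *GNP1* was 16.6 to 18.6% in *ths1-C268A* and 21.2 to 22.9% in WT.

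The coding regions are related, and shared fragments could blur the members. Identity between pairs of the 10 coding sequences was 52.6 to 70.2% of the shorter one, with a median of 56.2% over 45 pairs. It was highest for *AGP1* and *GNP1* (70.2%), *BAP2* and *BAP3* (69.3%) and *CAN1* and *LYP1* (67.7%). The longest exact stretch shared with another coding region was 47 bp, between *AGP1* and *GNP1* and between *LYP1* and *ALP1*, and for *DIP5*, *CAN1*, *TAT1* and *BAP2* it was 18, 20, 26 and 22 bp. How fragments that map to several places were counted is not given in the sources used here.

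Of 14 genes of the SPS sensor pathway and permease folding, 4 passed the test, all of them higher in the mutant, against 26.4% of all genes in either direction and 14.2% higher. The median log2 fold change of the list was 0.11, against -0.0025 for all genes. It was -0.0042 with the equal total, -0.0038 with limma-voom and 0.04 after a correction for coding length. The median of all genes in these settings was -0.115, -0.119 and 0.0043. *SSY1*, the receptor, was 38.1, 31.2 and 37.7 FPKM in *ths1-C268A* and 37.5, 36.8 and 35.2 FPKM in WT (log2 fold change -0.04, adjusted p = 0.802 from limma). The protease gene *SSY5* had a log2 fold change of 0.04. *PTR3*, the adaptor, was 75.5, 75.4 and 85.5 FPKM in *ths1-C268A* and 62.1, 66.6 and 66.5 FPKM in WT (log2 fold change 0.27, adjusted p = 0.0470 from limma), a call kept in 5 of 17 alternatives. The effector *STP2* rose by 0.41 on the log2 scale (adjusted p = 0.00987 from limma). It was 146.7, 166.0 and 166.0 FPKM in *ths1-C268A* and 119.1, 119.9 and 120.1 FPKM in WT, and lost its call only without WT replicate B (0.0533). *STP1*, the other effector, was 196.2, 197.2 and 214.2 FPKM in *ths1-C268A* and 177.0, 172.3 and 174.8 FPKM in WT. These groups did not overlap either, but its log2 fold change of 0.21 did not pass (adjusted p = 0.0732 from limma). *DAL81*, which acts with the Stp factors, had a log2 fold change of 0.30 (0.0737).

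Among genes that control the sensor's signal, *YCK2*, a casein kinase I gene, rose by 0.44 on the log2 scale (adjusted p = 0.0158 from limma), while its partner *YCK1* had a log2 fold change of 0.03. The call of *YCK2* was lost without WT replicate B (0.0586) or C (0.0631). *RTS1*, a regulatory subunit of protein phosphatase 2A, rose by 0.55 on the log2 scale (adjusted p = 0.00933 from limma), to 144.0, 186.3 and 177.3 FPKM in *ths1-C268A*, against 117.1, 117.2 and 109.0 FPKM in WT. The ubiquitin ligase subunit *GRR1* (0.06), the inner nuclear membrane genes *ASI1* (0.16), *ASI2* (-0.06) and *ASI3* (0.02), which restrain unprocessed Stp factors, and the permease chaperone *SHR3* (-0.11) did not pass. Without WT replicate B 1 of these 14 genes was higher and without WT replicate C 2 were, and without the other samples 3 to 5 were.

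Several other plasma membrane carriers had larger fold changes, though the lists were not tested against each other. Of 14 amino acid and peptide permeases outside the family list, 6 were higher, 2 were lower and 6 did not pass, against 14.2% higher and 12.1% lower over all genes. *GAP1*, the general amino acid permease, had the largest change (log2 fold change 1.33), and *MUP3* (1.04), *MMP1* (1.02), *SAM3* (0.84) and *MUP1* (0.38), carriers of methionine and related compounds, were also higher. *OPT1* (0.33), an oligopeptide and glutathione carrier, was higher and *OPT2* was lower (-0.38), a call kept in 10 of 17 alternatives. *PTR2*, the peptide permease and another target of Stp1 and Stp2, was 90.7, 96.0 and 99.3 FPKM in *ths1-C268A* and 146.4, 124.6 and 129.9 FPKM in WT. Like *TAT1*, it was lower in every mutant sample (log2 fold change -0.48, adjusted p = 0.00758 from limma), also in all 17 alternatives. *PUT4*, the proline permease, did not pass by a narrow margin (-0.66, adjusted p = 0.05004 from limma), but passed in 9 of 17 alternatives. *DAL5* (-0.30) did not pass either, but did in 5 of 17 alternatives. *AGP2* (0.24), *UGA4* (0.18), *AGP3* (-0.00069) and *ALP1* also did not pass. The number of higher genes was 4 with the equal total, limma-voom, a correction for coding length or limma without the trend. It was also 4 without *ths1-C268A* replicate B and without any 1 of the WT samples. In all of these fits *MUP1* and *OPT1* did not pass. The number of lower genes was 4 with the equal total, limma-voom, a correction for coding length or a mean of at least 10 FPKM. It was 1 with no filter on low values and without *ths1-C268A* replicate B, WT replicate B or WT replicate C. In these last fits *OPT2* did not pass.

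Of 30 genes of permease traffic and turnover, 19 did not pass, 10 were higher and 1 was lower, against 14.2% higher and 12.1% lower over all genes. The median log2 fold change of the list was 0.16, or 0.04 with the equal total and with limma-voom, where that of all genes was -0.115 and -0.119. Those with the smallest p were *VPS27* (log2 fold change 0.46), a subunit of the endosomal sorting machinery for ubiquitylated cargo, *SLA1* (0.51), an endocytic adaptor, *BUL1* (0.55) and *SSH4* (0.35), adaptors of the ubiquitin ligase Rsp5. The call of *SSH4* was lost without any 1 of the WT samples (adjusted p 0.0508 to 0.0586 from limma). *RSP5* itself did not pass (0.23, adjusted p = 0.0681 from limma). The gene that was lower was *AST1* (-0.37), named after its value was seen, as *RSP5* was, and it did not pass without *ths1-C268A* replicate B, without any 1 of the WT samples or with the replicate letter as a block. The count of higher genes fell to 3 without WT replicate B or C, to 4 without WT replicate A, to 6 without *ths1-C268A* replicate B or C, to 6 with the equal total and to 5 after a correction for coding length. *GCN4*, the transcription factor of general amino acid control, was 849.1, 1100 and 950.8 FPKM in *ths1-C268A* and 732.5, 681.1 and 707.9 FPKM in WT (log2 fold change 0.44, adjusted p = 0.0291 from limma).

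Of 20 genes of the eisosome, the membrane domain in which Can1 and other permeases reside, 4 were lower, 1 was higher and 15 did not pass, a share near the 26.4% of all genes. The main structural genes *PIL1* (0.04) and *LSP1* (0.17), named after their values were seen, did not pass. *FHN1*, a paralog of the eisosome gene *NCE102*, fell by 0.87 on the log2 scale, the eisosome component *RFS1* fell by 0.59 and *SUR7*, a membrane protein that marks these domains, fell by 0.33, and *SLM2*, a phosphoinositide-binding protein of the TORC2 pathway, rose by 0.60. With *ths1-C268A* replicate B, WT replicate B or WT replicate C left out, 1 gene was lower, and 2 were without *ths1-C268A* replicate C. Of 16 vacuolar amino acid transporters tested, 3 passed the test, all of them higher, against 14.2% higher and 26.4% in either direction over all genes, while with the equal total or limma-voom 2 were higher and 1 was lower. *RTC2* (0.76) and *YPQ1* (0.57), which encode transporters of basic amino acids at the vacuole, and *AVT4* (0.28), which exports neutral amino acids to the cytoplasm, passed, and *ERS1* (-0.30) did not. The call of *AVT4* was kept in 7 of 17 alternatives and lost with the equal total, with limma-voom and without any 1 sample other than *ths1-C268A* replicate A.

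**Figure D5:**
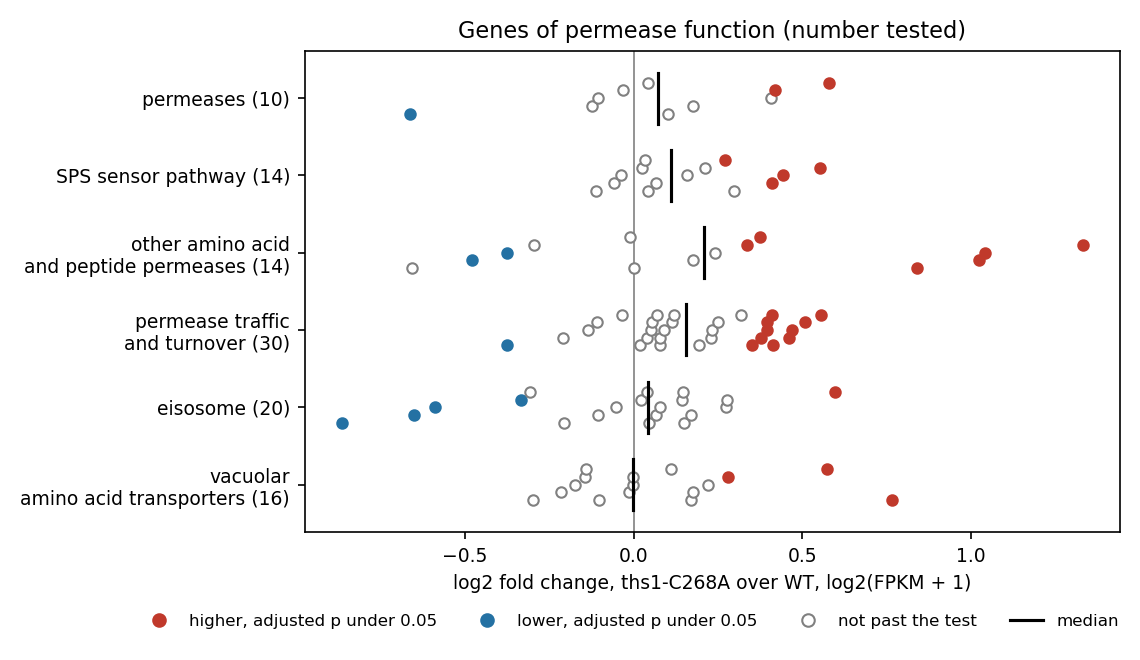
log2 fold change of each gene tested, *ths1-C268A* over WT, for the 10 permeases and 5 further lists, filled in red (higher) or blue (lower) where adjusted p was under 0.05, with a bar at the median of the list. The 10 permeases spread to either side of 0, with a median of 0.07. The other permeases reach from -0.66 for *PUT4*, which passed only in 9 of 17 alternatives, to 1.33 for *GAP1*.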

How the data were processed

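RNA of 3 *ths1-C268A* and 3 WT samples was sequenced at Novogene. The values the authors deposited are FPKM per gene, beside names, coordinates and lengths, and the submitters' processing notes name HISAT2. Counting, annotation and strandedness were not given in the sources used here. FPKM times length gave whole fragments, within 0.01, for 100% of values above 0. A floor of 3 fragments corresponds to 0.0763 to 0.0837 FPKM at 1800 bp, for counting error only. Of 6045 genes with a RefSeq locus tag, 6033 had their R64 coordinates and 12 had others. A few genes are not reported here.

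Strains were compared with limma 3.58.1 in R 4.3.3 on log2(FPKM + 1), with strain as the only term, a trend of variance on mean, two-sided tests and Benjamini-Hochberg adjustment. The study calls the samples biological replicates, and p-values measure only the spread between them. Within strains, chi-square per degree of freedom between samples was 7.72 to 53.2, so no pair agreed within sampling noise. In 17 alternatives, samples were left out in turn, the replicate letter was a block, limma-voom was run on recovered fragments, the trend was dropped, coding length was corrected by loess (span 0.5), samples were scaled by median ratios or by protein-coding totals, the pseudocount was 0.1 or 5, and the genes were all, those averaging 10 FPKM, or protein-coding ones. Scripts were tested on simulated data.

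The permeases, gene lists and tests were chosen with earlier results of these data known. Named were all 10 permeases, all genes of the sensor and other permease lists, up to 4 genes with the smallest p of each further list, *GCN4*, overlapping ORFs and strain checks. Upstream sequence and coding sequence were read from RefSeq R64, and coding sequences were aligned with Biopython 1.88.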

Additional observations from a re-analysis of the deposited data

How the results depend on the processing

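The calls of *DIP5*, *CAN1* and *TAT1* kept their direction and side of the threshold in all 17 alternatives, and the 6 permeases other than *BAP2* that did not pass stayed on that side, with a change of sign for *LYP1*, *BAP3* and *AGP1* in 1 or more of them. Of 170 fits of single permeases, 4, all of *BAP2*, changed side. Over all genes, 524 were higher and 1285 lower with the equal total over protein-coding genes, and 1387 were lower with limma-voom, against 916 and 783 as deposited. Leaving out 1 sample gave 356 to 1088 higher and 290 to 1057 lower genes. The replicate letter as a block gave 683 higher and 593 lower genes. Deviations of samples with the same letter correlated at -0.23, 0.06 and -0.01, and those with unlike letters at -0.20 to 0.21. With 3 samples per strain, these values cannot decide whether the letters pair the samples. Genes of the other lists changed side in 138 of 1597 fits, and no call reversed. Depth does not limit the permeases, and the 3 samples per strain do. The causes were not tested.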

Other observations

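Threonine codons, where this mutant ThrRS allows Ser to be inserted, made up 3.55% (*TAT2*) to 6.63% (*HIP1*) of the permease codons, 21 to 40 codons per gene, against a median of 5.59% over 5378 genes of at least 100 codons. The genes that rose held 6.44% (*CAN1*) and 4.77% (*DIP5*), and *TAT1*, which fell, held 4.04%.

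Permeases with more CGGC cores upstream tended to have lower fold changes, with *BAP2*, *BAP3* and *TAT2* apart from this order. The counts of *TAT1* and *BAP3* include matches that overlap on opposite strands, in GCCGGC and CGGCCG. With such overlaps counted once, *TAT1* would tie with *BAP2*. The same relation was not computed over the other promoters searched. The log2 fold change was -0.66 for *TAT1* (7 cores), 0.41 for *BAP2* and 0.04 for *BAP3* (6 each), -0.12 for *GNP1* (5), -0.03 for *AGP1* (4), -0.11 for *TAT2* (3), 0.10 for *LYP1* (2), 0.18 for *HIP1* and 0.42 for *CAN1* (1 each) and 0.58 for *DIP5* (0). Spearman's rho over these 10 genes was -0.671, given as a description, since the genes share the same 6 libraries and some are related in sequence. *PTR2*, which was lower, held 1 core, and *GAP1*, which was higher, held 3 cores and 4 GATAAG sites.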
